A study of Mus musculus with 42 samples.

Results

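The RNA-seq counts of 10 transcription factors of the Sox family were compared between mouse muscle precursors that expressed Pax7, the same cells after Pax7 was withdrawn, and satellite cells, the stem cells of skeletal muscle. The genes were Sox2, Sox4, Sox5, Sox6, Sox8, Sox9, Sox10, Sox11, Sox15 and Sox17, read by their symbols from the 24466 gene symbols of the count tables. iPax7 cells are myogenic precursors derived from a mouse embryonic stem cell line in which doxycycline (Dox) induces a Pax7 transgene. The +Dox group was cultured in 0.75 µg/ml Dox and had 3 libraries. The -Dox group had been without Dox for 3 days and had 2 libraries, and both groups carry the transgene. The satellite cells came from living muscle, and the study isolated such cells by sorting from Pax7-ZsGreen reporter mice. They had 3 libraries, and the age of the mice was not given in the sources used here. Each group is 1 record with 1 count table a library, and no label names separate cultures or animals for them, so the p-values measure only the spread between these libraries. ATAC-seq regions, which mark open chromatin, histone mark regions and Pax7 binding sites of the same series were read at the Sox genes.

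Sox proteins bind DNA through a high mobility group box and bend it, and they fall into subgroups that share sequence and often act redundantly. SoxB1 (Sox2) maintains pluripotent and neural stem cells. SoxC (Sox4, Sox11) acts in progenitors that begin to differentiate, and SoxD (Sox5, Sox6) lacks a transactivation domain of its own and works with Sox9 in cartilage. SoxE (Sox8, Sox9, Sox10) acts in cartilage and glia, and SoxF (Sox17) in endoderm and vessels. Sox15 forms the SoxG subgroup. In muscle, Sox6 is known as a repressor of slow-fibre genes, Sox8 and Sox9 as inhibitors of myoblast differentiation, and Sox15 as a factor of muscle regeneration.

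Between 39010958 and 54674619 reads were counted on genes in each library. Pax7, the check of the labels, had 11610 to 14130 normalized counts in the +Dox libraries, 220.6 and 269.5 in the -Dox libraries, and 3926 to 8504 in satellite cells. A normalized count is a read count scaled to a common library size by edgeR's TMM factors. Reads that aligned to several places made up 23.6% to 30.7% of the satellite libraries and 7.11% to 7.60% of the iPax7 libraries. The source of the cells and the preparation of the libraries cannot be told apart between satellite cells and iPax7 cells. Markers of other cell types were also higher in the satellite libraries. All 10 endothelial markers, all 5 fibroblast markers, 4 of 6 blood markers and 7 of 11 Schwann cell and melanocyte markers were higher in every satellite library than in every iPax7 library. The same held for 5 of 7 myogenic markers, so it was not limited to other cell types, and for none of the 7 markers of differentiated muscle. Of 14836 genes that passed a filter on low counts, 30.2% had every satellite library above every +Dox library, and 33.7% above every -Dox library. In such bulk samples, fewer cells of a type and less RNA per cell cannot be told apart.

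The levels of the Sox genes spanned several orders of magnitude, and Sox11 and Sox9 led in every group. Levels are compared between genes as CPM, the count scaled to a common library size, per kilobase of annotated exon, called the per-length level here. In +Dox the per-length level was 33.3 ± 2.62 (SD, n = 3) for Sox11, 5.77 ± 0.204 for Sox9, 1.11 ± 0.558 for Sox4 and 0.522 ± 0.120 for Sox8. The Sox4 and Sox8 libraries overlapped in that order, and so did Sox6 and Sox5, whose mean per-length levels were 0.0302 and 0.00402. In -Dox the order of the per-length levels was Sox11 (128 ± 9.02, SD, n = 2), Sox9 (9.66 ± 0.457), Sox6 (0.828 ± 0.338), Sox4 (0.784 ± 0.267), Sox8 (0.422 ± 0.0322) and Sox5 (0.114 ± 0.0351). Sox6 and Sox4 overlapped in that order. In satellite cells Sox9 had a per-length level of 77.4 ± 20.2 (SD, n = 3), followed by Sox4 at 4.31 ± 0.934, Sox8 at 2.77 ± 1.29, Sox6 at 2.08 ± 0.555, Sox5 at 1.08 ± 0.561, Sox17 at 0.748 ± 0.372 and Sox10 at 0.352 ± 0.289. Of these neighbours, the libraries separated only between Sox9 and Sox4 and between Sox6 and Sox5. Sox11 lay at 57.6, 40.5 and 709 in the 3 satellite libraries, below Sox9 in replicates 1 and 2 and above it in replicate 3. The Sox11 model of the annotation holds 2.013 kb of exon, whereas RefSeq gives 1 exon spanning 8.451 kb. On that span the mean per-length level of Sox11 was 7.94 in +Dox and 30.4 in -Dox, and it still led the order in these groups.

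Sox15 had a count of 0 in all 8 libraries, and Sox2 had 0 in all 5 iPax7 libraries and 1, 0 and 2 reads in satellite cells. A count of 0 leaves room for up to 3 reads in a library, which is between 2.22 and 4.02 normalized counts, and intervals of this kind cover counting error only. Neither gene passed the filter on low counts, and the other 8 were tested. Sox10 and Sox17 had no read in any iPax7 library and passed the filter only through satellite cells, where they are counted.

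**Figure D1:**
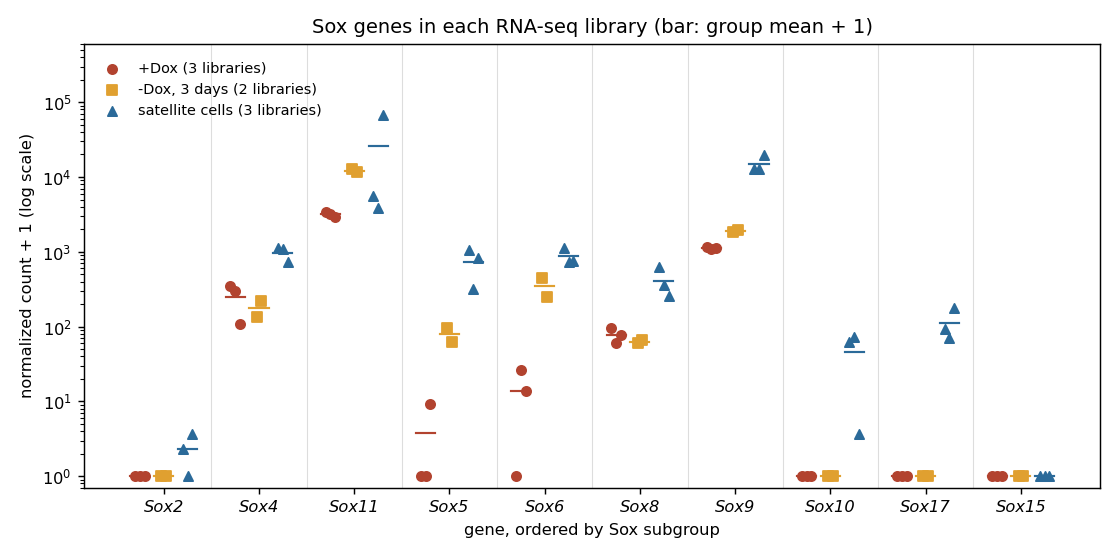
Normalized counts plus 1 of the 10 Sox genes on a log axis, 1 point a library, with a bar at each group's mean plus 1. Sox5, Sox6 and Sox9 stepped up from +Dox to -Dox to satellite cells, although not every step passed the test. Satellite replicate 3 stood far above the other libraries for Sox11, and Sox15 was at 0 in all 8 libraries.

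After Dox withdrawal Sox6, a SoxD gene, rose, and it alone of the 8 tested genes passed the test. Called genes had an adjusted p under 0.05 and at least a 2-fold change by the quasi-likelihood test of edgeR, with p-values adjusted by Benjamini and Hochberg's method over 14836 genes. By this rule 7.64% of all tested genes were called in -Dox against +Dox (4.63% higher in -Dox and 3.01% higher in +Dox), and 1 of the 8 tested Sox genes was called. Sox6, on mm9 at chr7:122614858-123182258, had 0, 25.2 and 12.8 normalized counts in +Dox and 446.6 and 246.5 in -Dox. The groups did not overlap. The rise was 27.1-fold, a log2 fold change of 4.76 (SE 1.11, adjusted p = 0.0312, edgeR). The adjusted p was 0.0921 without +Dox replicate 3, 0.136 without -Dox replicate 1 and 0.0684 without -Dox replicate 2, with log2 fold changes of 4.77, 4.27 and 5.14. Sox5, its partner on chr6:143776945-144730497, had 0, 0 and 8.20 normalized counts in +Dox and 94.7 and 60.9 in -Dox. These groups did not overlap either. Its log2 fold change was 4.85 (SE 1.31), with an adjusted p of 0.0546 from edgeR that missed the threshold. Over the alternatives the adjusted p for Sox5 ran from 0.000776 with DESeq2's Wald test to 0.192 without -Dox replicate 1, and it was 0.144 in a fit of the +Dox and -Dox libraries alone. Without +Dox replicate 3, the one with reads of Sox5, the log2 fold change was 9.31. A part of the Sox5 exons, 9.25% of their bases, is shared with 4933415D12Rik.

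Neither Sox11 nor Sox4, of the SoxC subgroup, was called after withdrawal. Sox11, at chr12:28025562-28027574, had 3421, 3178 and 2923 normalized counts in +Dox and 12763 and 11549 in -Dox. Both -Dox libraries were above every +Dox library, and the libraries of each group lay close together. The log2 fold change was 1.94 (SE 0.97, adjusted p = 0.287, edgeR), in a fit that shared its estimate of the spread with the satellite libraries. The adjusted p was 0.000952 in a fit of the +Dox and -Dox libraries alone and 0.00351 without satellite replicate 3, each with a log2 fold change of 1.94. Sox4, at chr13:29040788-29045582, had 346.3, 299.2 and 107.5 normalized counts in +Dox and 135.1 and 220.6 in -Dox. These groups overlapped, and the log2 fold change was -0.50 (SE 0.58, adjusted p = 0.719, edgeR). More than 50% of the Sox4 exon bases, 54.6%, are shared with the gene model Gm17419. Reads there may have been set aside as ambiguous, which would lower the Sox4 counts and its per-length level.

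Among the SoxE genes, Sox9, at chr11:112643538-112649074, had 1169, 1089 and 1126 normalized counts in +Dox and 1826 and 1952 in -Dox. The groups did not overlap, but the log2 fold change of 0.74 (SE 0.27, adjusted p = 0.135, edgeR) was not called. Sox8, at chr17:25702837-25707631, had 95.4, 59.98 and 75.6 normalized counts in +Dox and 58.8 and 65.5 in -Dox. These groups overlapped, and the log2 fold change was -0.31 (SE 0.67, adjusted p = 0.890, edgeR). In all, 4 of the 8 tested Sox genes had both -Dox libraries above the 3 +Dox libraries, against 22.7% of all tested genes. The median log2 fold change was 0.37 over the 8 tested Sox genes, of which Sox10 and Sox17 were at 0 in both groups, and 0.00 over all tested genes.

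Genes that are known to respond to these factors were read from fixed lists. Each count called below is to be set beside all tested genes, of which 4.63% were called higher in -Dox and 3.01% higher in +Dox. Of 10 genes of slow muscle fibres, which Sox6 is known to repress, 6 were called higher in -Dox and none lower. Myh7, the slow myosin heavy chain, had 0, 0.74 and 0 normalized counts in +Dox and 2484 and 3883 in -Dox (adjusted p = 0.000244, edgeR). It passed the filter on low counts only through -Dox, so its call supports nothing beyond it. Tnnc1 and Tnni1, the slow troponins C and I, were 348-fold and 303-fold higher in -Dox (adjusted p = 0.000894 and 0.000272, edgeR), and Tnnt2, the cardiac troponin T of embryonic muscle, was 252-fold higher (adjusted p = 0.00199, edgeR). The median log2 fold change of the list was 6.63. All 7 listed genes of differentiated muscle, such as Myog and Ckm, were also called higher in -Dox, and of 7 myogenic genes, Pax7 among them, 3 were called lower and 1 higher. Of 12 cartilage matrix genes, the textbook targets of Sox5, Sox6 and Sox9, 8 were tested and 1 was called. That gene was Acan, the aggrecan core protein, with 211.8, 371.7 and 128.4 normalized counts in +Dox and 0 in both -Dox libraries, at least 85.9-fold lower (adjusted p = 0.0118, edgeR). Acan passed the filter on low counts only through +Dox, so this call supports nothing beyond it. Col2a1, the main cartilage collagen, had 22.5, 57.8 and 20.9 normalized counts in +Dox and 110.3 and 44.3 in -Dox, and was not called. Of 5 neuronal genes linked to SoxC factors, 1 was called, Stmn2, a microtubule regulator, 8.89-fold lower in -Dox (adjusted p = 0.00436, edgeR). Dcx and Tubb3, which encode doublecortin and a neuronal tubulin, had means of 179.1 and 48.2 normalized counts in +Dox and 5093 and 314 in -Dox, with no overlap, and were not called (adjusted p = 0.112 and 0.0644, edgeR). The +Dox libraries of Dcx differed widely, with 339.5, 197.0 and 0.91 in replicates 1, 2 and 3. Map2 went the other way, with means of 222.2 in +Dox and 28.96 in -Dox and no overlap, and was not called (adjusted p = 0.0517, edgeR). Foxk1 and Fhl3, known as partners of Sox15 in myogenic progenitors, were both tested and not called.

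The 8 tested genes of the set were all higher in satellite cells than in +Dox cells, whereas Sox12, outside the set, was higher in +Dox. In +Dox against satellite cells 42.1% of all tested genes were called (23.9% higher in satellite cells and 18.2% higher in +Dox), and 8 of the 8 tested Sox genes were called higher there. All 3 satellite libraries lay above all 3 +Dox libraries for each of the 8, against 30.2% of all tested genes, and 26.3% were separated in the other direction. The median log2 fold change for +Dox against satellite cells was -4.92 over the tested Sox genes, or -3.99 with genes at 0 set to their bound, and -0.17 over all tested genes. Because Sox10 and Sox17 could pass the filter only by being high in satellite cells, these counts describe the tested genes and support nothing beyond them.

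Sox9 had the smallest adjusted p of the 8 Sox genes. Its satellite libraries had 12796, 12914 and 19687 normalized counts, 13.4-fold above +Dox (log2 fold change -3.75 for +Dox against satellite cells, SE 0.27, adjusted p = 1.53e-05, edgeR). It was called in each of the 8 fits that left out 1 library. The 5 fibroblast markers, which include the collagen gene Col1a1, summed to 54412 to 108772 normalized counts in satellite libraries and 2601 to 4494 in iPax7 libraries, and Lum was at 0 in every +Dox library. Their part in the Sox9 result was not tested. Sox8 had 621.4, 353.9 and 251.9 normalized counts in satellite cells, 5.31-fold above +Dox (log2 fold change -2.41, SE 0.63, adjusted p = 0.0121, edgeR). Without +Dox replicate 2 its adjusted p was 0.0542. Sox10, the SoxE gene of neural crest and glia on chr15:78985343-78994920, had 61.9, 71.0 and 2.64 normalized counts in satellite cells, the last from 2 reads. The satellite mean was at least 18.8-fold above +Dox, with 3 reads a library as the floor (adjusted p = 0.0275, edgeR). Leaving out +Dox replicate 1, 2 or 3 gave adjusted p-values of 0.0580, 0.0591 and 0.0548.

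Sox10 was read beside 11 markers of Schwann cells and melanocytes, in which it is a lineage regulator. Of the 8 tested, 6 were called higher in satellite cells than in +Dox, against 23.9% of all tested genes. Listed genes at 0 in iPax7 cells could pass the filter only through satellite cells, so these calls support nothing beyond them. Ednrb, the endothelin receptor of neural crest cells, and Cdh19, a cadherin of the same lineage, were at 0 in all iPax7 libraries and at least 1593-fold and 176-fold higher in satellite cells (adjusted p = 1.78e-05 and 0.000566, edgeR). Erbb3, a neuregulin receptor of Schwann cells, and Mitf, the regulator of melanocytes, were not called, with means of 430.8 and 641 normalized counts in +Dox and 107.3 and 302.4 in satellite cells. The +Dox mean of Erbb3 came from 576.9, 635.4 and 80.1 in replicates 1, 2 and 3. Erbb3 was 25.6-fold higher in -Dox than in satellite cells (adjusted p = 0.00628, edgeR). The listed genes summed to 25557 to 33176 normalized counts in satellite libraries and to 6777 to 15799 in iPax7 libraries, where 6 of the 11 genes were at 0 throughout. Pmp22, a membrane protein that other cells also express, made up most of the sum, with 18406 to 24910 normalized counts in satellite libraries. The part of these markers in the Sox10 result was not tested.

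Sox17, an SoxF factor of endoderm and endothelium on chr1:4481009-4486494, had 92.2, 68.4 and 174.1 normalized counts in satellite cells and no read in the 5 iPax7 libraries. The satellite mean was at least 46.4-fold above +Dox (adjusted p = 0.00566, edgeR). All 10 endothelial markers were called higher in satellite cells than in +Dox, against 23.9% of all tested genes. They summed to 22392 to 29944 normalized counts in satellite libraries and to 115 to 952 in iPax7 libraries. Markers with almost no reads in iPax7 cells could pass the filter only through satellite cells, so these calls support nothing beyond them. Cdh5, the cadherin of vessel walls, was at 0 in every iPax7 library, and Kdr, a receptor for vascular growth factor, was at 0 in every +Dox library. Their part in the Sox17 result was not tested.

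Sox5 and Sox6 were both higher in satellite cells. Sox5 had 1060, 316.3 and 836.2 normalized counts in satellite cells, against a +Dox mean of 2.73 that came from 9 reads in 1 library (log2 fold change -8.09, SE 1.42, adjusted p = 0.00167, edgeR). The log2 fold change was -7.44 without +Dox replicate 1 or 2 and -12.55 without replicate 3, so its size rested on that library. Sox6 had 1137, 727.9 and 742.5, which was 68.1-fold above +Dox (log2 fold change -6.09, SE 1.14, adjusted p = 0.00235, edgeR). For Sox6 the log2 fold change ran from -7.05 to -5.46 when 1 library was left out, and both genes were called in each of these 8 fits. Of the cartilage matrix genes, Comp, a matrix protein of cartilage and tendon, had 531.9, 307.0 and 423.4 normalized counts in satellite cells and 0 in +Dox, at least 175-fold higher (adjusted p = 0.00360, edgeR). Acan was called in the other direction (adjusted p = 0.00170, edgeR), with 1 read over the 3 satellite libraries. Comp passed the filter only through satellite cells and Acan only through +Dox, so these calls support nothing beyond these genes.

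Sox4 and Sox11 were both higher in satellite cells, but the Sox11 result rested on 1 library. Sox4 had 1106, 1091 and 732.0 normalized counts in satellite cells, 3.89-fold above +Dox (log2 fold change -1.96, SE 0.53, adjusted p = 0.0145, edgeR), and was called in each of the 8 fits that left out 1 library. Sox11 had 5487, 3860 and 67501 normalized counts in satellite replicates 1, 2 and 3. All 3 exceeded every +Dox library, and replicate 3 stood far above the other two satellite libraries. The log2 fold change was -3.01 (SE 0.94, adjusted p = 0.0269, edgeR) with all libraries and -0.56 (adjusted p = 0.104) without satellite replicate 3. Leaving out +Dox replicate 1, 2 or 3 gave adjusted p-values of 0.0708, 0.0732 and 0.0860. The same satellite library had the lowest Sox10 count of the 3 and a Klf4 level of 22777 normalized counts against 9036 and 8518 in the other two.

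At 3 days after withdrawal Sox4, Sox8, Sox9 and Sox17 were lower than in satellite cells. In -Dox against satellite cells 37.6% of all tested genes were called (20.4% higher in satellite cells and 17.2% higher in -Dox), and 4 of the 8 tested Sox genes were called, all higher in satellite cells. Sox9 was 8.01-fold higher (log2 fold change -3.00, SE 0.31, adjusted p = 0.000137, edgeR), Sox4 5.49-fold (adjusted p = 0.0132, edgeR), Sox8 6.57-fold (adjusted p = 0.0176, edgeR) and Sox17 at least 40.4-fold (adjusted p = 0.0144, edgeR). Without -Dox replicate 1 or replicate 2, Sox9 alone remained called. Sox5 and Sox6, which lay between +Dox and satellite cells, were not called. Their log2 fold changes were -3.24 (SE 1.30, adjusted p = 0.0743, edgeR) and -1.33 (SE 1.06, adjusted p = 0.341, edgeR), although every satellite library was above both -Dox libraries. Sox10 was at least 16.3-fold higher in satellite cells on its mean and missed the threshold (adjusted p = 0.0597, edgeR). Sox11 had a log2 fold change of -1.08 (SE 1.01, adjusted p = 0.419, edgeR), and its direction turned without satellite replicate 3, to 1.38 (adjusted p = 0.00754). In replicates 1 and 2 satellite cells had less Sox11 than both -Dox libraries. For 7 of the 8 tested Sox genes the satellite libraries all lay above the -Dox libraries, against 33.7% of all tested genes, and 30.6% were separated in the other direction. Sox10 and Sox17 passed the filter only through satellite cells, so the counts of this comparison describe the tested genes and support nothing beyond them. The lowest Sox10 satellite library had 2 reads, within the room of up to 3 reads that a count of 0 leaves. The 3 comparisons share libraries and are not independent of each other.

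**Figure D2:**
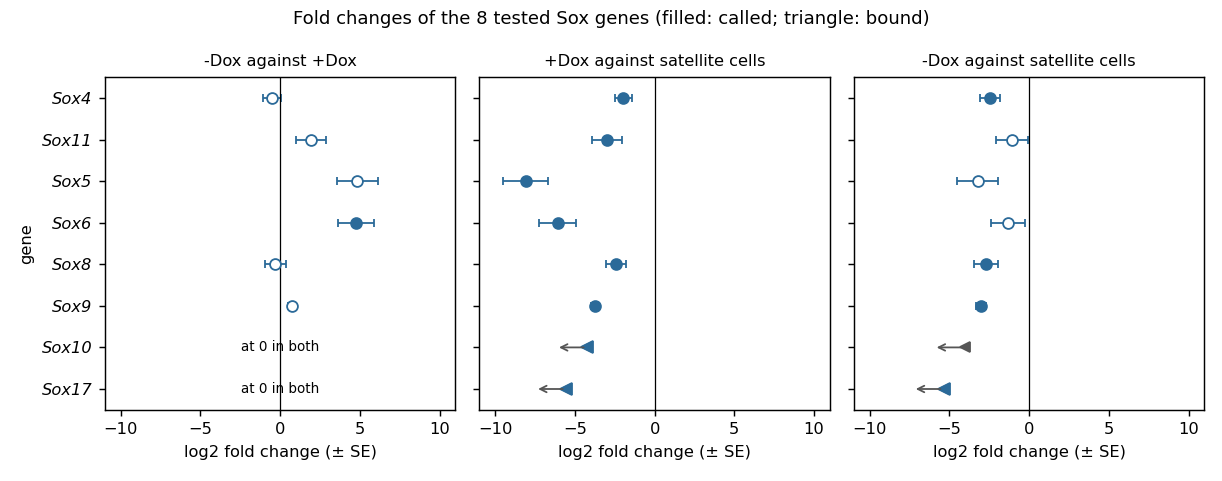
Log2 fold changes with standard errors of the 8 tested Sox genes in the 3 comparisons, the group named first against the second. Filled symbols were called, open circles were not, and triangles with arrows give the bound where 1 group was at 0 (blue if called, grey if not). Sox6 was called in -Dox against +Dox, and the 8 genes were called in +Dox against satellite cells.

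The remaining 10 Sox genes of the tables give the background of the family. Sox1, Sox3, Sox14, Sox21 and Sry had no read in any library, Sox30 had at most 50.9 normalized counts, and Sox7, Sox12, Sox13 and Sox18 were tested. Sox7 and Sox18, the other 2 SoxF genes, were also higher in satellite cells. Like Sox17, they passed the filter only through satellite cells, so this likeness and their p-values support nothing beyond these genes. Sox7 had 1872, 3174 and 2175 normalized counts in satellite cells and at most 1 read in any iPax7 library (adjusted p = 1.14e-05 for +Dox and 4.33e-05 for -Dox, edgeR). Sox18 had 86.9, 12.1 and 67.3 in satellite cells and none in iPax7 cells, at least 23.1-fold and 20.1-fold higher than in +Dox and -Dox (adjusted p = 0.0167 and 0.0389, edgeR). Sox13, a SoxD gene, had 12.0, 28.9 and 5.46 normalized counts in +Dox, none in -Dox and 67.1, 100.5 and 241.4 in satellite cells, and was called higher in satellite cells than in -Dox (at least 49.3-fold, adjusted p = 0.00560, edgeR). Sox13 was not called in -Dox against +Dox (adjusted p = 0.0628, edgeR) or in +Dox against satellite cells (adjusted p = 0.0569, edgeR). By means alone its lowest group was -Dox, whereas that of Sox5 and Sox6 was +Dox. Sox5 was not called in -Dox against +Dox either. Sox12, the third SoxC gene, was the one tested Sox gene with its highest level in +Dox. It had 707.6, 751.6 and 1179 normalized counts there, 509.1 and 362.8 in -Dox and 72.4, 112.6 and 7.91 in satellite cells. It was 13.7-fold higher in +Dox than in satellite cells (adjusted p = 0.00512, edgeR) and 6.77-fold higher in -Dox (adjusted p = 0.0260, edgeR). Pou5f1 and Nanog, which act with Sox2 in pluripotent cells, had no read in any library. Of 10 pluripotency genes 4 were tested, and Klf4 was called higher in satellite cells than in +Dox (55.4-fold, adjusted p = 3.31e-05, edgeR). Zfp42, a marker of embryonic stem cells, was called in the other direction, with 19.5, 12.6 and 39.2 normalized counts in +Dox and none in satellite cells (at least 5.98-fold, adjusted p = 0.0446, edgeR). Zfp42 passed the filter only through +Dox, so this call supports nothing beyond it.

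The genes whose pattern was most like that of each Sox gene were sought among 11356 others with a mean of at least 100 normalized counts, by Pearson's r over the 8 libraries on log2(normalized count + 1). These points share 3 groups, so a high r is common and carries no test. For Sox6 they were Gnb5 (0.995), Rtl1 (0.974) and Htra3 (0.970), and for Sox5 Ifitm3 (0.992), Fxyd1 (0.991) and Fam214b (0.989). Sox9 was most like Tcp11l2 (0.996), Hspa2 (0.995) and Clk3 (0.995), Sox8 like Lcn2 (0.994), F13a1 (0.991) and Pnpla2 (0.990), and Sox4 like Eef2 (0.985), Matn2 (0.981) and Cep83 (0.980). Sox11 was most like Tuba1c (0.978), an alpha-tubulin, then Tmem68 (0.957) and Samd8 (0.945). Among 11357 genes, Sox10 was most like Git1 (0.990), Esm1 (0.985) and Chst3 (0.983), and for Sox17 Itgbl1, Myoc and Mmp3 had an r of at least 0.999.

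H3K27me3, the repressive mark that Polycomb complexes deposit, lay at 6 of the 10 Sox promoters in +Dox, and 4 of these also had ATAC-seq, H3K4me1 and H3K4me3 regions. A gene was counted where a called region touched the 1 kb on either side of any annotated start, and the same was done for 19022 protein-coding genes. Different marks of a gene therefore need not lie at the same start, and a gene with more starts had more bases to be touched. Each condition had 1 merged list of regions, so these counts have no replicate error. ATAC-seq regions lay at 8 of the 10 Sox promoters in +Dox, against 67.7% of all genes, and at 7 in satellite cells, against 62.8%. At 12 hours, 24 hours and 3 days without Dox they lay at 7, 8 and 8, against 65.8%, 68.9% and 70.2%. Sox4, Sox9 and Sox11 had the strongest ATAC-seq regions in +Dox, with fold enrichments of 31.8, 35.5 and 23.9, and Sox2, Sox5 and Sox15 the weakest, with 3.87, 3.96 and 3.44. No ATAC-seq region lay at the Sox10 promoter in these 5 conditions. At Sox17 none was called in +Dox, at 12 hours or in satellite cells, whereas fold enrichments of 3.21 and 4.72 were called at 24 hours and 3 days without Dox.

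H3K27me3 regions lay at 6 Sox promoters in +Dox, against 23.5% of all genes, and at the same 6 in -Dox, against 21.5%. They were Sox2, Sox5, Sox6, Sox8, Sox10 and Sox17, whose mean normalized counts in +Dox ran from 0 to 77.0. The 4 without the mark were Sox4, Sox9 and Sox11, with means of 251.0, 1128 and 3174 in +Dox, and Sox15, with 0. Sox2, Sox5, Sox6 and Sox8 also had H3K4me3, the mark of active or poised promoters, in both conditions, and 14.4% of all genes had both marks in +Dox and 15.2% in -Dox. Sox5 had 12 annotated starts and Sox6 had 5, and whether both marks lay at the same start was not tested. Sox6 and Sox5 had H3K27me3 regions in both conditions. At Sox6 3 regions covered 2671 of 10005 window bases in +Dox and 5 covered 2046 in -Dox, and at Sox5 5 regions covered 1293 of 8566 bases in +Dox and 3 covered 481 in -Dox. Whether these were the same regions was not tested. At Sox8 the covered length was 461 bases in +Dox and 1407 in -Dox. H3K27Ac, a mark of active promoters and enhancers, was present at 6 Sox promoters in +Dox, against 51.7% of all genes, and at 4 in -Dox, against 48.6%, with no region at Sox8 and Sox15 in -Dox. H3K4me1, a mark of enhancers and promoter flanks, and H3K4me3 each lay at 8 Sox promoters in both conditions, all but those of Sox10 and Sox17. For all genes the shares were 65.9% in +Dox and 69.3% in -Dox for H3K4me1, and 64.6% and 70.4% for H3K4me3. In C2C12 cells, an established mouse myoblast line, H3K27me3 lay at 5 of the 10 Sox promoters (Sox2, Sox6, Sox8, Sox10 and Sox17) both with a Flag control and with Flag-tagged Pax7, against 20.5% and 23% of all genes. The -Dox list of H3K4me3 held 214172 regions and the +Dox list 94067, and the effect of this on the counts was not tested.

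**Figure D3:**
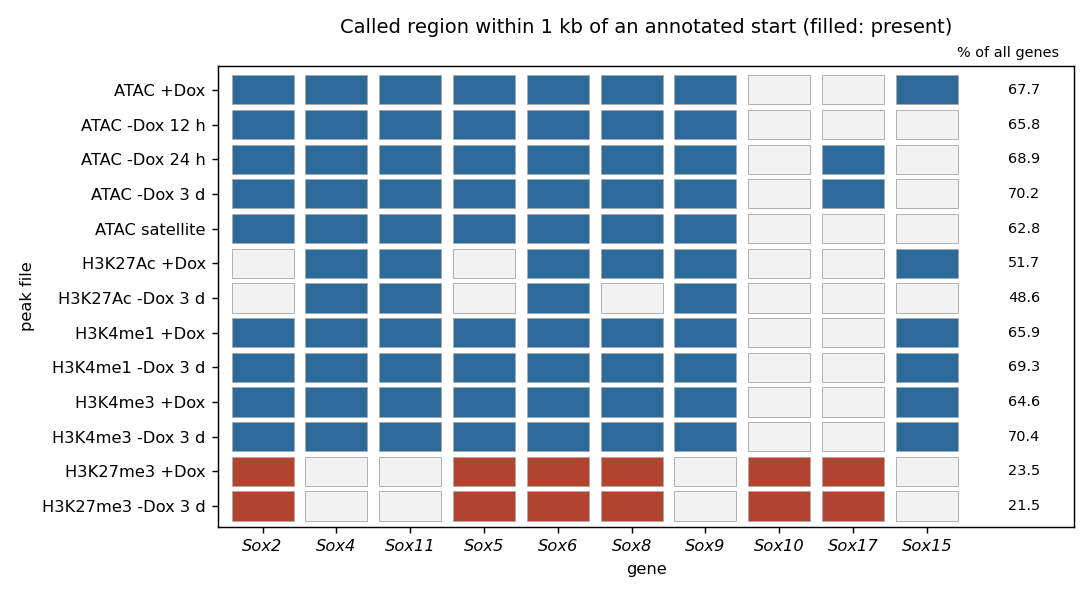
Called regions within 1 kb of the annotated starts of the 10 Sox genes in 13 region lists, with filled squares for presence (red for H3K27me3) and the percentage of all genes with such a region at the right. H3K27me3 marks Sox2, Sox5, Sox6, Sox8, Sox10 and Sox17 in both conditions, and Sox10 and Sox17 have no H3K27Ac, H3K4me1 or H3K4me3 region in the lists shown.

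Pax7 sites lay within 100 kb of a start of 3 of the 10 Sox genes (Sox4, Sox11 and Sox15), against 19.3% of all genes. None lay within 50 kb, against 11.6%, and 5 genes had one within 200 kb, against 32.4%, with Sox5 and Sox9 added. The list of 2455 sites leaves out by construction every site found in -Dox. Both sites near Sox15 were at the start of Trp53, and 7 protein-coding genes had nearer starts. None of the 19022 protein-coding genes had a nearer start at the other 6 sites, and other gene models were not searched. None of the 6 touched an annotated exon. The Sox5 site lay in an intron of Sox5, 141.2 kb after its first start, and sites 97.4 kb and 141.7 kb after the Sox4 start lay within the span of 2610307P16Rik.

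The 6 sites differed in what the ATAC-seq regions did after withdrawal. The site 52.9 kb before the Sox4 start had a fold enrichment of 23.7 in +Dox, no region at 12 hours and 24 hours, and 2.41 at 3 days. The site 79.3 kb after the Sox11 start had 20.9 in +Dox and no region at 12 hours, 24 hours or 3 days, and 4.88 in satellite cells. The site 141.7 kb after the Sox4 start had 17.6 in +Dox, none at 12 hours and 24 hours, 3.42 at 3 days and 11.7 in satellite cells. The site 97.4 kb after it had 4.82 in +Dox and none later. Thus 4 of the 6 sites had a region in +Dox and none at 12 and 24 hours, as did 28.3% of all Pax7 sites. At the other two a region was called throughout. The Sox5 site had fold enrichments of 28.6, 13.9, 19.2 and 24.6 in +Dox and at 12 hours, 24 hours and 3 days without Dox, and the site 194.9 kb after the Sox9 start had 51.1, 29.0, 43.5 and 39.9. Regions at all 4 of these conditions covered 58.2% of Pax7 sites. Fold enrichments come from separate files of different depth, and no test was made of them.

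The sequences of these 6 sites are shown because 4 had an ATAC-seq region in +Dox and none at 12 and 24 hours, and 2 had one throughout. Each is the 300 bases at the centre of the site on the plus strand of mm9, in lower case, with matches in capitals to GTCAC (or GTGAC on the other strand), a core of paired-domain sites, and to TAATTA, TAATNNATTA and TAATNNNATTA, homeodomain sites that read the same on both strands and can overlap each other. GTCAC was present in 49.2% of the 2455 Pax7 site centres, TAATTA in 9.69%, TAATNNATTA in 1.02% and TAATNNNATTA in 1.67%. No sequence outside Pax7 sites was searched, so these shares show no enrichment. Such short motifs also occur by chance, and a match in capitals need not be a site that Pax7 binds. TAATTA did not occur in any of the 6. The windows are chr13:29098373-29098672, chr13:28947351-28947650 and chr13:28903070-28903369 for Sox4, chr12:27948138-27948437 for Sox11, chr6:144589098-144589397 for Sox5 and chr11:112840774-112841073 for Sox9.
Sox4, 52.9 kb before its start: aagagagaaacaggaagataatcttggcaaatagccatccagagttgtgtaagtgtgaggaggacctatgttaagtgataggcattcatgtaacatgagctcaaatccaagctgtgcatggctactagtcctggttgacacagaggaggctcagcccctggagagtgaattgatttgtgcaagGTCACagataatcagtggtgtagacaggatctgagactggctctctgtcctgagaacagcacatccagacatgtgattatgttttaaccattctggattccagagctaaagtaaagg
Sox4, 97.4 kb after its start: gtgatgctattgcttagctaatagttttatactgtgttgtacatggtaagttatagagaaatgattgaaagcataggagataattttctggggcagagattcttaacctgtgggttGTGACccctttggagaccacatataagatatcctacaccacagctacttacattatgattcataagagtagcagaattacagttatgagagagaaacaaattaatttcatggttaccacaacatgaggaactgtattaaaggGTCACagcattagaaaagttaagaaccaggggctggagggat
Sox4, 141.7 kb after its start: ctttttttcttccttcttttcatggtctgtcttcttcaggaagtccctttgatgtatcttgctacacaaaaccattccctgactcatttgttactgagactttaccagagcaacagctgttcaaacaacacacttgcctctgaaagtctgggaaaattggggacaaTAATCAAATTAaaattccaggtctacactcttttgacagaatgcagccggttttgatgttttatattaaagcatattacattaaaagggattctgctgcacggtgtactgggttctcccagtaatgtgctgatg
Sox11, 79.3 kb after its start: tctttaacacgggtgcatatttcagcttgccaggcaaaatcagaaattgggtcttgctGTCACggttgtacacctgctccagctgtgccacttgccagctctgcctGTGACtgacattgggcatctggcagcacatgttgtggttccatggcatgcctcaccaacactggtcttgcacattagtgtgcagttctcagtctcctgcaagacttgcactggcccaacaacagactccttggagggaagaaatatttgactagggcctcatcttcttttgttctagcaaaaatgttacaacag
Sox5, intron: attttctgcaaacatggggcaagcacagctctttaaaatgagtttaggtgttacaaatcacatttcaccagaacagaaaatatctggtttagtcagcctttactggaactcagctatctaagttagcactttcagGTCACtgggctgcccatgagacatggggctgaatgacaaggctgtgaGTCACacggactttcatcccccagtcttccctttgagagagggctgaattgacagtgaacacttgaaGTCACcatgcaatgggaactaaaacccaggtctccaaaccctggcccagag
Sox9, 194.9 kb after its start: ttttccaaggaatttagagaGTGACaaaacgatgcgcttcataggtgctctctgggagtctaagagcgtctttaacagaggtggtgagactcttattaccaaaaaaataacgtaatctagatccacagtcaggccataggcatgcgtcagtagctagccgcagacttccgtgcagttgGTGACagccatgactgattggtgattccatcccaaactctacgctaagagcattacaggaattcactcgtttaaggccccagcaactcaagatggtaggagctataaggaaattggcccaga
The site 141.7 kb after Sox4 held the 1 TAATNNNATTA match and no GTCAC, and the other 5 held 1 to 3 matches to GTCAC. The Sox5 and Sox9 sites, with a region throughout, held 3 and 2 such matches, and the sites with none at 12 and 24 hours held 0 to 2, so the motif counts overlapped.

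**Figure D4:**
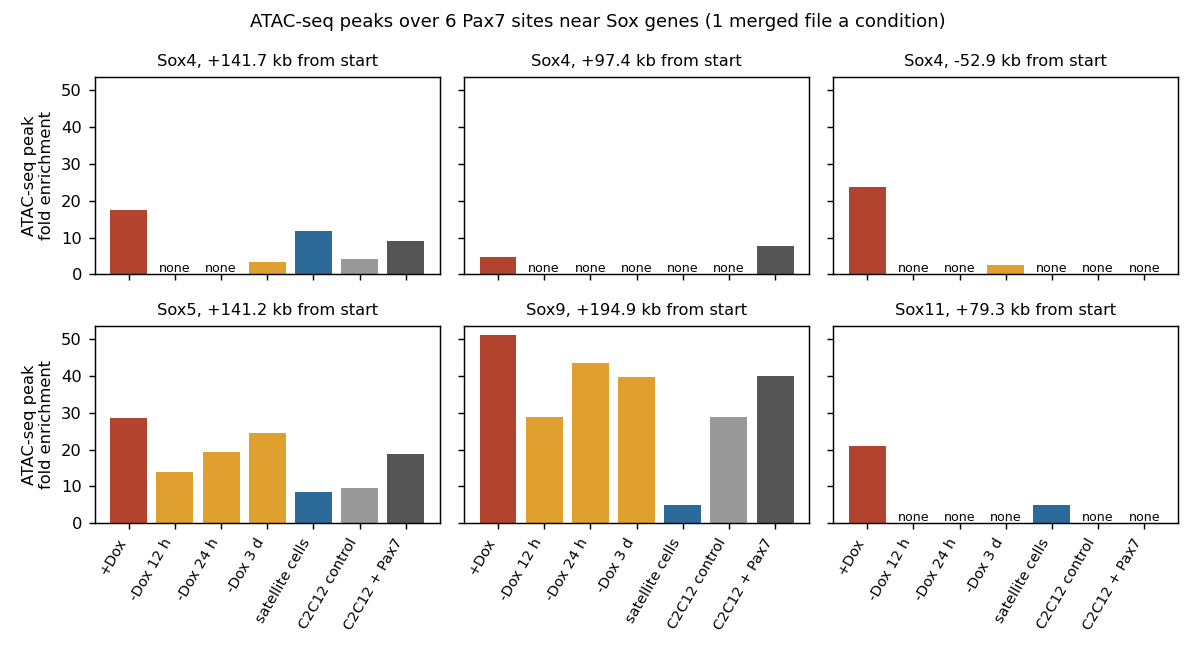
Fold enrichment of the ATAC-seq region over each of 6 Pax7 sites near Sox genes in 7 conditions, with 1 merged file a condition and therefore no error bars. The sites of Sox4 and Sox11 have no region at 12 and 24 hours without Dox, whereas those of Sox5 and Sox9 have one in every condition shown.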

How the data were processed

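RNA-seq counts were read for +Dox (3 libraries), -Dox (2) and satellite cells (3), as the labels group them. The authors deposited whole-number counts for each gene symbol, not normalized, in the layout HTSeq writes. The submitters' processing notes name HTSeq 0.6, TopHat2 2.0, Trimmomatic 0.32 and mm9; whether the counting used strand was not given in the sources used here. The authors called ATAC-seq regions with MACS2 2.0.10 on merged replicates and deposited them with the fold enrichment (a ratio) and -log10 p-values and q-values. They shifted read ends for the transposase, and deposited histone regions and Pax7 sites, called with Qeseq, as coordinates. Only Pax7 sites found in 2 or more +Dox samples and in no -Dox replicate were kept.

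Genes that passed filterByExpr were tested with edgeR 4.0.16 (TMM, quasi-likelihood test, 1 mean a group, R 4.3.3), all 8 libraries sharing the dispersion (common value 0.413). The standard error is the log2 fold change over the square root of F. Reads that HTSeq set aside as ambiguous (1.51% to 2.32%) or not unique were left out. Depth was 39010958 to 54674619 counts a library. Bounds for groups at 0 use 3 reads a library, averaged over the group. Alternatives used DESeq2 1.42.0, other scaling, filters, blocks and left-out libraries. The fit was tested on simulated data. Exon lengths and positions came from GENCODE M1 on NCBIM37 (mm9), and 19022 of 24466 symbols matched a protein-coding gene.

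The genes and lists were chosen with earlier results of these data known. Genes named outside the Sox family are list members called with the largest changes, defining markers of the lists, and the 3 most alike by Pearson's r. Myh7, Col2a1, Lum, Kdr, Klf4, Pou5f1, Nanog, Erbb3, Mitf, Pmp22, Dcx, Tubb3 and Map2 are shown as examples or as markers, some of them chosen after their values were seen. A gene of the marker lists is not reported here.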

Additional observations from a re-analysis of the deposited data

How the results depend on the processing

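The tests of the Sox genes were most open in -Dox against +Dox. There 1 Sox gene was called, and 2 with DESeq2's Wald test, 2 with no filter beyond a count in any library, 2 with a filter of at least 1 CPM in at least 2 libraries, 2 in the fit of the compared groups alone, and 3 in that fit with a block for the replicate number. Sox6 was among them in each of these. Over all genes, 1134 were called, against 2150 with DESeq2, 1950 in the fit of the compared groups alone and 2608 with the replicate block. Leaving out each of the 8 libraries in turn gave 488 to 1374 called genes and 0 to 2 Sox genes, with none called without -Dox replicate 1 or 2. In +Dox against satellite cells these ranges were 5112 to 6229 genes and 5 to 8 Sox genes, against 6252 and 8, and the low of 5 came without +Dox replicate 2. In -Dox against satellite cells they were 3204 to 5821 genes and 1 to 6 Sox genes, against 5579 and 4, and the low of 1 came without either -Dox replicate, whose lone partner is then assumed to vary like the other groups. The replicate block gave 4976 genes and 6 Sox genes in +Dox against satellite cells, with Sox11 not called and Sox10 below the filter, and 4834 genes and 6 Sox genes in -Dox against satellite cells, adding Sox5 and Sox11. The numbers are shared only by name: correlations of the deviations from group means between same-numbered libraries lay between -0.0398 and 0.0272. The fold change of Sox11 in -Dox against satellite cells, -1.08 on the log2 scale, reversed to 1.45 with the replicate block (adjusted p = 0.011, edgeR) and to 1.38 without satellite replicate 3, and ranged from -1.59 to 1.38 when each library was left out. In the block fit, satellite replicate 3 had no -Dox library of the same number and so did not enter this fold change. Both reversals therefore left out the same library, and why that library differed was not tested. Of the 321 alternative values for single Sox genes, 287 kept their direction and side of the threshold. DESeq2 set the adjusted p of Sox11 to NA, and Sox10 fell below the filter without satellite replicate 1 or 2. In the higher-scoring part of the +Dox ATAC-seq regions 5 Sox promoters were covered in place of 8. With a distance of 50 kb or 200 kb in place of 100 kb, 0 and 5 Sox genes had a Pax7 site in place of 3. Histone lists hold no scores, so this alternative could not be fitted to them. Depth limits Sox2, Sox10 and Sox15, with at most 53 reads in any library.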

Other observations

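C2C12 cells, an established mouse myoblast line, were profiled by ATAC-seq with a Flag-tagged Pax7 and with a Flag control, 1 merged file each. Of the 6 Pax7 sites near Sox4, Sox5, Sox9 and Sox11, 3 had a region in the control and 4 with Pax7, beside 38.6% and 71.0% of all 2455 Pax7 sites. The site 97.4 kb after the Sox4 start had no region in the control and a fold enrichment of 7.80 with Pax7. The sites 52.9 kb before the Sox4 start and 79.3 kb after the Sox11 start had none in either file. At the 3 sites with a region in both, the fold enrichments in the control and with Pax7 were 4.22 and 9.10 at the site 141.7 kb after Sox4, 9.60 and 18.8 in the Sox5 intron, and 29.0 and 40.1 at the Sox9 site. The files differ in depth and have no replicate error, so these pairs are given as values without a test.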
